A study of Mus musculus with 4 samples.

Results

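The mesothelial cells described here were 832 of the 23666 kept cell barcodes (3.52%, exact 95% interval 3.28% to 3.76%). A barcode was kept if it held at least 500 UMIs, 300 genes and under 15% mitochondrial UMIs, where a UMI is 1 distinct captured RNA molecule. The mesothelial set was chosen by measured UMIs of its own markers: a barcode was taken if it held at least 1 UMI of Upk3b, at least 1 of Msln and at least 1 of Lrrn4 and Upk1b together, with none of the leukocyte gene Ptprc and none of the epithelial gene Epcam. They were set against 8467 fibroblasts (at least 1 UMI of Pdgfra and 5 of Dcn), against 672 barcodes with at least 1 UMI of Epcam, and against all 22834 other kept barcodes, which include both of these.

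Cells came from untreated C57BL/6J mice, 4 male and 4 female, aged 12 to 14 weeks. Collecting lymphatics, whose muscle propels lymph onward, were dissected with the tissue around them from 4 body regions, among them the mesentery, and the regions of a mouse were pooled. Cells of each mouse were tagged with oligonucleotides before droplet capture, with 1 gene expression library per sex. The labels do not tie a barcode suffix (1 to 8) to a mouse or a sex, so the matrix was treated as 1 pooled sample, no test was made, and neither sex nor region could be compared.

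Mesothelium is the single sheet of flat cells that lines the body cavities and covers the organs and the mesentery inside them. Its cells derive from mesoderm yet carry keratins, junctions and apical microvilli like an epithelium. They secrete hyaluronan-rich lubricating fluid, and their RNA is known for Wt1, mesothelin and uroplakins.

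The 832 mesothelial barcodes held 13309910 UMIs. A typical one (median) had 14241.5 UMIs from 4137.5 genes, against medians of 11729 UMIs in fibroblasts, 12288 in Epcam-positive barcodes and 8629 in all others. Median mitochondrial share was 1.53% in mesothelial barcodes, 0.965% in fibroblasts and 1.30% in all others, and a doublet caller marked 36 mesothelial barcodes (4.33%) against 3.37% of all others. Suffixes 1 to 4 and suffixes 5 to 8 used the same 4 tags. They shared 44 barcode sequences across and none within these sets. Of the shared sequences, 2 were those of a mesothelial barcode and none of 2 mesothelial barcodes. Levels are given as CPM, the UMIs of a gene per 1000000 UMIs summed over a group, and their intervals cover counting error only. Each suffix is given as the level of 1 unlabelled sample.

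The share of mesothelial barcodes was uneven across suffixes. The counts in suffixes 1 to 8 were 105, 79, 136, 130, 24, 127, 129 and 102. Shares ran from 0.737% (exact 95% interval 0.473% to 1.10%) in suffix 5 over a median of 3.68% to 5.58% in suffix 4. Suffix 5 stood below the intervals of the other suffixes, and the share without it was 3.96%. How much mesentery each suffix held is not labelled, so dissection and cell recovery cannot be told apart from abundance.

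**Figure D1:**
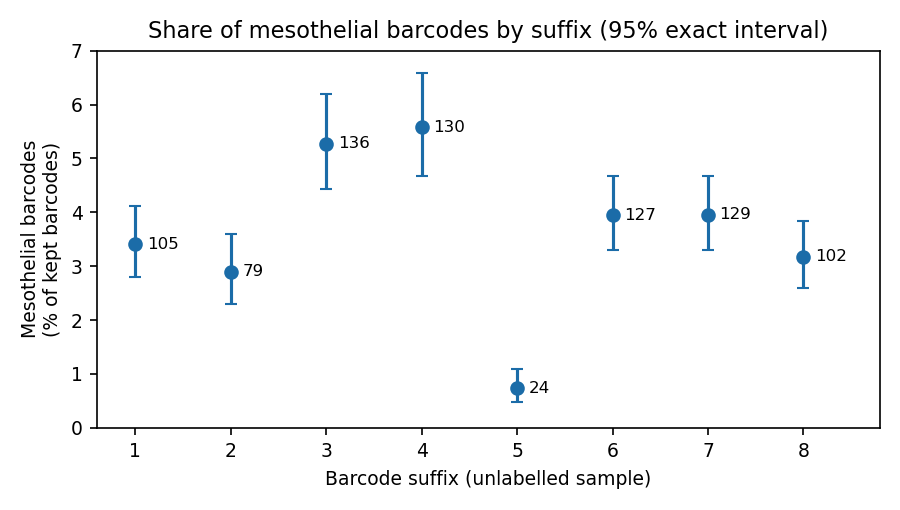
Share of mesothelial barcodes among kept barcodes (y axis, percent) in each of the 8 unlabelled barcode suffixes (x axis), with exact 95% intervals for counting error and the number of mesothelial barcodes beside each point. Suffix 5 sits at 0.737%, and suffixes 3 and 4 sit at 5.27% and 5.58%.

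The genes of the rule are given as a description only, since they chose the cells. The median mesothelial barcode held 24 UMIs of Upk3b, which encodes a uroplakin of asymmetric membrane plaques, 8 of Msln, which encodes the cell surface protein mesothelin, and 12 of Lrrn4 and Upk1b together. No member rested on a single UMI of each, and 753 held at least 2 of each. Just outside the rule, 85 barcodes lacked only Msln, 16 lacked only Lrrn4 and Upk1b, and 6 lacked only Upk3b. Ptprc removed 82 barcodes that met all positive criteria, of which 31.7% were called doublets, and Epcam removed 34.

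Mesothelial markers outside the rule were high in these barcodes. Against all other barcodes, 373 of 7828 genes at 20 CPM or more in either sum (4.76%) were at least 4-fold higher and 781 (9.98%) at least 4-fold lower. All 8 markers kept for checking the label, namely Wt1, Muc16, Bnc1, Gpm6a, Nkain4, Rspo1, Pkhd1l1 and Cldn15, were among the higher genes. Of the longer list of 14 markers, which adds keratins, Ezr and Hp among others, 11 were higher, Hp was lower (4.13 against 35.3 CPM) and Krt8 and Krt18 were within 4-fold. The summed level of the 8 was 3343 to 4038 CPM across suffixes in mesothelial barcodes and 99.6 to 246 CPM in all others.

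Muc16, the membrane mucin that carries the CA125 epitope and binds mesothelin, was at 215, 301 and 408 CPM (lowest, median and highest suffix) in mesothelial barcodes, against 0.951, 4.29 and 14.5 CPM in all others. Muc16 lies at chr9:18495455-18674530 and Slpi at chr2:164354070-164389095, both on the minus strand (GRCm38). The ranges of Muc16 did not overlap, and its pooled ratio was 65.2 (95% interval 60.9 to 69.9). Slpi, a secreted inhibitor of leukocyte proteases, was at 3738, 6552 and 11098 CPM in mesothelial barcodes, against 18.3, 89.1 and 279 CPM in all others. Its pooled ratio was 57.0 (56.2 to 57.8), and the lowest mesothelial suffix stood above the highest of the others. Nkain4, whose product binds a subunit of the sodium pump, was at 749, 962 and 1076 CPM in mesothelial barcodes and at 10.7, 13.2 and 40.2 CPM in all others (55.8-fold higher). These levels were higher in mesothelial barcodes in 8 of 8 suffixes. Muc16, Slpi and Nkain4 belong to the genes with the largest ratios described below, which had to be higher in every suffix. For them 8 of 8 is therefore no separate check. All others include 242 barcodes that met 2 or 3 of the positive criteria. Without those, the ratios were 286 for Slpi, 205 for Nkain4 and 173 for Muc16, so the size of such a ratio rests on where the rule ends.

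**Figure D2:**
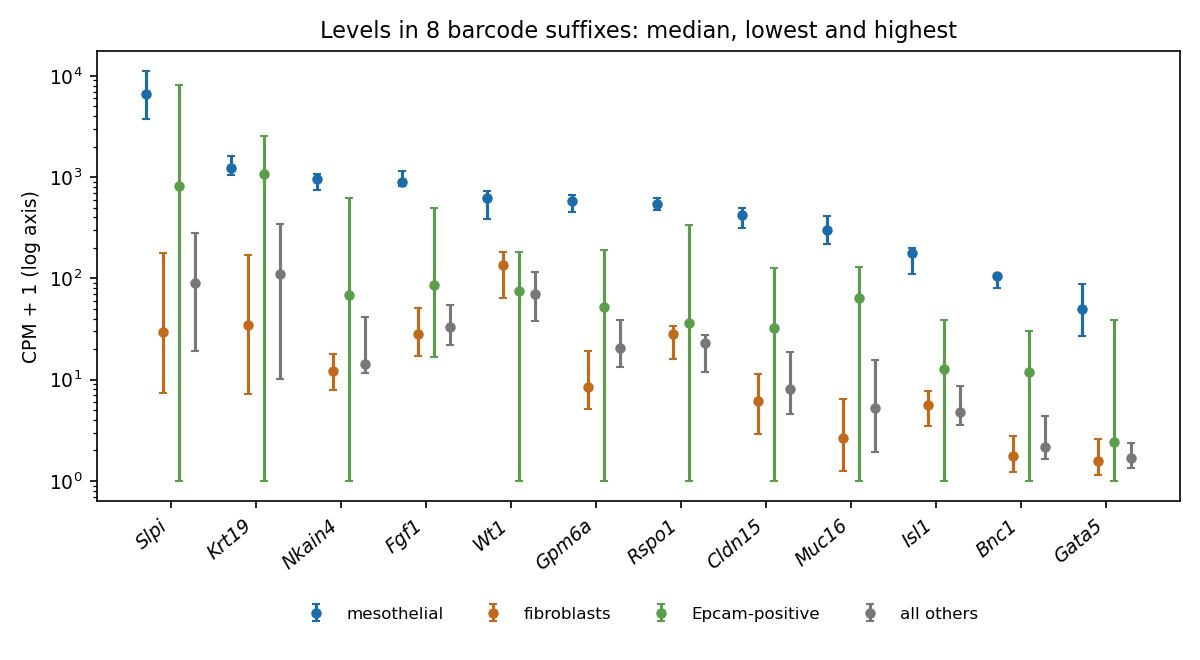
Levels of 12 genes (x axis) as CPM + 1 on a log axis, in mesothelial barcodes, fibroblasts, Epcam-positive barcodes and all others. Points are medians of 8 suffixes and bars run from the lowest to the highest suffix, so the wide Epcam-positive bars include suffixes 5 to 8 with 9 to 28 such barcodes each. For all 12 genes the mesothelial range lies above that of the fibroblasts and above that of all others.

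Shares of barcodes at equal depth gave the same picture. After every barcode was thinned to 2000 UMIs, which left out 7 mesothelial and 1496 other barcodes, Nkain4 was found in 78.7% of mesothelial barcodes, 1.54% of all others and 0.402% of B cells, a type that should lack it. Slpi was found in 76.1% of mesothelial barcodes, 2.79% of all others and 2.01% of B cells. Cldn15 was found in 50.5% of mesothelial barcodes, 0.937% of all others and 0.402% of B cells. Unthinned, 90.5% of mesothelial barcodes, 7.84% of all others and 8.03% of B cells held a UMI of Slpi, at median depths of 14241.5, 8629 and 5642 UMIs.

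The 25 genes with the largest ratios over all other barcodes were taken from genes at 50 CPM or more in mesothelial barcodes. They also had to be higher there in every suffix, so 8 of 8 suffixes was set by this choice. Their ratios ran from 30.9 for AI661453 to 88.6 for Chst4, a sulfotransferase of glycan chains. Without the 242 barcodes near the rule the ratio was 45.0 for AI661453 and 818 for Chst4. The 25 include the transcription factors Gata5, Bnc1, Isl1 and Myrf, the galectin Lgals2, the claudin Cldn15 and the connexin Gjb5. Il17re, a receptor subunit for interleukin 17C, was at 107 CPM in mesothelial barcodes against 2.96 CPM in all others. Tnfrsf11b, the secreted decoy receptor osteoprotegerin, was at 238 CPM in mesothelial barcodes against 6.85 CPM in all others. Gsta3 and Gstp2 encode glutathione transferases, and were at 236 and 108 CPM in mesothelial barcodes against 7.35 and 3.08 CPM in all others. Gstp2 has close copies, so its count is uncertain.

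At the other end, the 10 lowest ratios included the leukocyte genes Cd86, Cybb, Blnk and Jchain and the vessel gene Selp. Cd86, a costimulator of T cells, was at 4.21 CPM in mesothelial barcodes against 499 CPM in all others, and Cybb, a subunit of the phagocyte oxidase, was at 1.88 CPM against 158 CPM. Ptprc-positive barcodes were kept out by the rule. The summed lists that follow include genes that chose the groups, so part of these contrasts was set by the choice. Such genes are Ptprc in the macrophage list, Epcam in the epithelial list, and Pdgfra and Dcn in the fibroblast list. Several summed lists of markers of other cell types were lower in mesothelial barcodes than in all others: 155 CPM for macrophages (122 to 189 CPM across suffixes) against 3817 CPM in all others, 19.6 CPM for endothelium against 429 CPM, 216 CPM for smooth muscle and pericytes against 1631 CPM, and 6.01 CPM for B cells against 260 CPM. Epithelial markers summed to 48.5 CPM in mesothelial barcodes (22.7 to 109 CPM) against 3332 CPM in Epcam-positive barcodes, and fibroblast markers, mostly Dcn, to 19727 CPM (17749 to 25605 CPM) against 26460 CPM in fibroblasts and 14576 CPM in all others. Mbp, a myelin gene, was higher, at 90.2 CPM in mesothelial barcodes against 15.8 CPM in fibroblasts and 38.5 CPM in all others. Markers of T and NK cells, adipocytes, mast cells and erythroid cells summed to 1.50, 1.50, 30.2 and 7.74 CPM in mesothelial barcodes.

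Transcription factors tied to mesothelium in development were high in part. Of 19 listed factors 13 were tested against all others, 6 were at least 4-fold higher and none lower, with a median log2 ratio of 1.97 beside -0.05 over all genes tested. Against fibroblasts 6 of 13 were higher and 1, Tcf21, was lower (median log2 ratio 1.36). Against Epcam-positive barcodes 8 of 14 were higher and 2, Irx3 and Irx5, were lower (median 2.32). Wt1, the zinc finger factor that marks mesothelium and the embryonic epicardium, was at 385, 620 and 724 CPM in mesothelial barcodes and at 36.6, 69.9 and 115 CPM in all others (8.79-fold higher). Gata6 was at 324 CPM in mesothelial barcodes and 54.5 CPM in all others, and Osr1, a factor of the intermediate and lateral mesoderm, was at 761 CPM in mesothelial barcodes and 172 CPM in fibroblasts. Isl1, a LIM homeodomain factor, was at 110, 177 and 198 CPM in mesothelial barcodes, against 2.57, 3.81 and 7.73 CPM in all others.

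Gata5 was at 26.1, 49.1 and 87.0 CPM in mesothelial barcodes, against 0.342, 0.676 and 1.36 CPM in all others (71.1-fold higher, and 424-fold without the 242 barcodes near the rule). Its relative Gata4 gave 1 UMI in all mesothelial barcodes. Tbx20, a heart and mesoderm factor, gave none, which allows a level of up to 0.225 CPM.

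GATA factors bind a short core sequence, and the promoters of the 25 leading genes were searched for AGATAA and its reverse complement TTATCT on both strands. RefSeq promoter windows (250 bases before to 50 after the start, GRCm38.p6) were found for 20 of the 25. The motif was in 4 of these 20 (20%), namely Gsta3, Mroh2a, Isl1 and Lgals2, beside 3083 of 27025 windows of all genes (11.4%). The windows of Isl1 (chr13:116309639-116309938, minus strand) and Lgals2 (chr15:78855480-78855779, minus strand) are shown 5′ to 3′ because both genes were among the 25 and hold the motif, which is in capitals.
Isl1: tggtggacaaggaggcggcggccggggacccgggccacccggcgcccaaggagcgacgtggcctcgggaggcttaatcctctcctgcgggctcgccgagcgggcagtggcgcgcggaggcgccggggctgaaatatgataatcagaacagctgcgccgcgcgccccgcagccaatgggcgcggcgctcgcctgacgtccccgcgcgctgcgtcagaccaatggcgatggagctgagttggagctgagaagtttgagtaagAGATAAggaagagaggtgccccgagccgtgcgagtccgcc
Lgals2: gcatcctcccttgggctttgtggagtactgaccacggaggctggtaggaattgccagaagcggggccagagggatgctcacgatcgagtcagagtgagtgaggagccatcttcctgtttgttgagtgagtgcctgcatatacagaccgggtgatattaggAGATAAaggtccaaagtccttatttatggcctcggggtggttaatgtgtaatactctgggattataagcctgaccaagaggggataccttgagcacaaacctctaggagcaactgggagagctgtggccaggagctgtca

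Against fibroblasts, 442 of 7374 genes (5.99%) were at least 4-fold higher in mesothelial barcodes and 467 (6.33%) at least 4-fold lower. These shares stand beside the counts of every list compared with fibroblasts below. Of 14 listed mesothelial markers outside the rule, 13 were higher and 1, the haptoglobin gene Hp, was lower, with a median log2 ratio of 4.72 beside 0.08 over all genes tested. Slpi, at 6747 CPM in mesothelial barcodes against 48.4 CPM in fibroblasts, was 139-fold higher, and Lgals7, a galectin of stratified epithelium, was at 766 CPM against 8.49 CPM. Wt1 differed less, at 614 CPM in mesothelial barcodes against 125 CPM in fibroblasts (4.92-fold, 4.79 to 5.06), and the fibroblast suffixes ran from 62.6 to 180 CPM.

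Genes lower than in fibroblasts included secreted Wnt regulators and matrix genes. Dkk2, a Wnt antagonist, was at 1.20 CPM in mesothelial barcodes against 65.3 CPM in fibroblasts, and Sfrp4 was at 13.6 CPM against 433 CPM. Tbx15, a transcription factor of limb and trunk mesenchyme, was at 4.43 CPM against 131 CPM in fibroblasts. Cilp, Aspn and Thbs2, all of the matrix, were at 2.55, 11.5 and 3.61 CPM in mesothelial barcodes against 115, 297 and 91.0 CPM in fibroblasts.

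**Figure D3:**
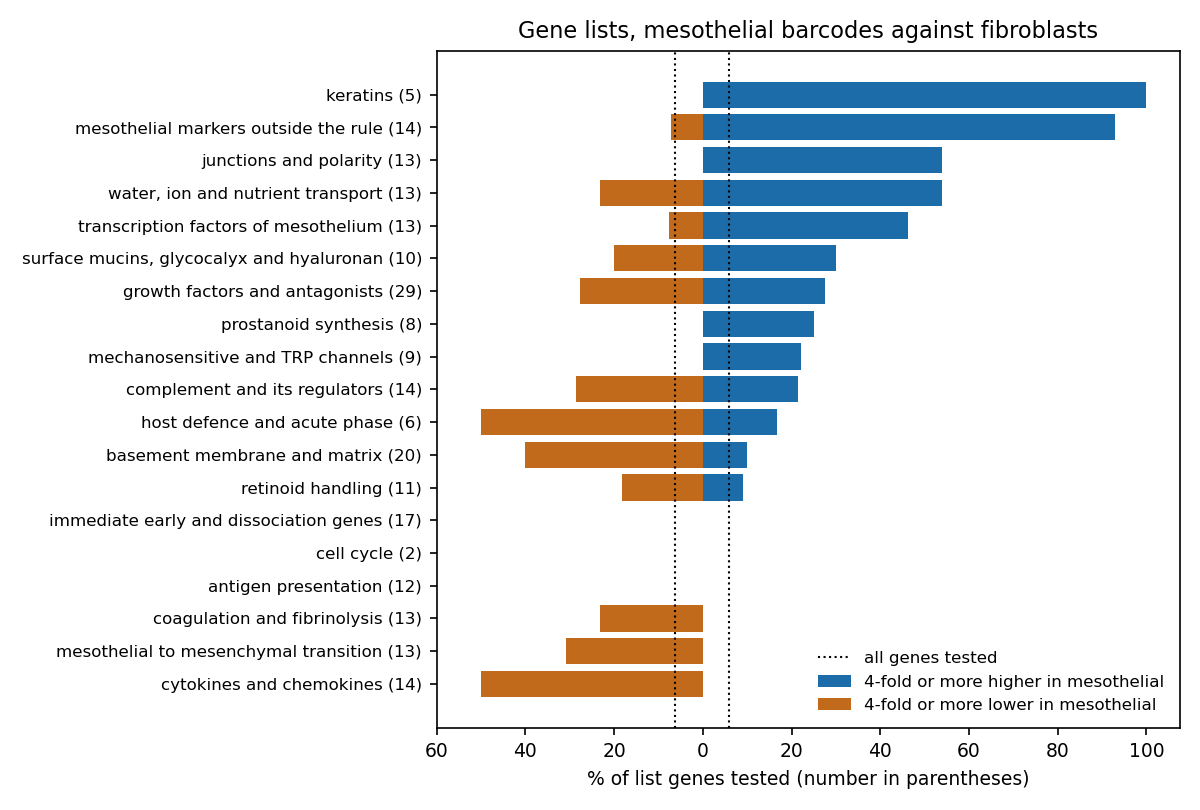
Share of the tested genes of each of 19 lists (x axis, percent) that were at least 4-fold higher (right) or lower (left) in mesothelial barcodes than in fibroblasts, with the number tested in parentheses on the y axis. Dotted lines mark the 5.99% higher and 6.33% lower among all genes tested; 5 of 5 keratins tested were higher and 7 of 14 cytokines and chemokines were lower.

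Surface molecules differed gene by gene. Of 10 tested mucin, glycocalyx and hyaluronan genes, 3 were higher than in fibroblasts (Sdc4, Podxl and Muc16) and 2 lower (Cd44 and Has2), with a median log2 ratio of -0.11. Podxl, a sialomucin of apical membranes, was at 151 CPM in mesothelial barcodes and 3.86 CPM in fibroblasts, and the syndecan Sdc4 was at 1531 CPM in mesothelial barcodes and 204 CPM in fibroblasts. Has2, a hyaluronan synthase, was at 3.22, 5.50 and 8.08 CPM in mesothelial barcodes, against 118, 140 and 156 CPM in fibroblasts. The other synthase Has1 was at 604 CPM in mesothelial barcodes and 989 CPM in fibroblasts, within 4-fold. Cd44, the hyaluronan receptor, was at 38.8 CPM in mesothelial barcodes against 272 CPM in fibroblasts.

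Keratins were higher in mesothelial barcodes than in fibroblasts. All 5 tested were higher, namely Krt7, Krt8, Krt18 and Krt19 of simple epithelium and Krt14 of basal epithelium, with a median log2 ratio of 4.34. All 10 listed keratins, tested or not, summed to 1889 to 2791 CPM across suffixes in mesothelial barcodes against 10.3 to 506 CPM in fibroblasts. Krt19 was at 1040, 1229 and 1607 CPM in mesothelial barcodes and at 6.21, 33.5 and 169 CPM in fibroblasts (25.2-fold higher). Krt7 was at 216 CPM in mesothelial barcodes against 7.82 CPM in fibroblasts, Krt8 at 363 against 43.0 CPM and Krt18 at 330 against 46.0 CPM. Krt14 was at 21.8 CPM in mesothelial barcodes against 1.08 CPM in fibroblasts and 23.6 CPM in all others.

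Pooled Epcam-positive barcodes shared these keratins, but the 10 listed keratins summed to 0 to 10181 CPM across their suffixes. Against them, 376 of 8186 genes (4.59%) were at least 4-fold higher in mesothelial barcodes and 811 (9.91%) at least 4-fold lower, with a median log2 ratio of -0.24, and of -0.15 over genes at 20 CPM or more in both. The Epcam-positive set is mixed: 221 of its 672 barcodes held Ptprc, 117 met the fibroblast criteria and 34 met all positive mesothelial criteria. A stricter set, 190 barcodes with at least 5 UMIs of Epcam, no Ptprc and without all positive criteria, gave 796 genes higher and 774 lower, and all 190 came from suffixes 1 to 4. In suffixes 5 to 8, with 72 Epcam-positive barcodes, 206 genes were higher and 770 lower. Of the 376 and 811 genes counted above, 122 and 336 were among them. Levels in Epcam-positive barcodes below are pooled over suffixes.

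No keratin was at least 4-fold higher in mesothelial than in Epcam-positive barcodes, and 6 of 9 tested were lower. Krt8 and Krt18, which pair in simple epithelia, were at 363 and 330 CPM in mesothelial barcodes, 2101 and 2407 CPM in Epcam-positive barcodes and 3912 and 4498 CPM in the stricter set. Krt19 was at 1311 CPM in mesothelial barcodes and 2130 CPM in Epcam-positive ones. Keratins of basal and stratified epithelium were among the 6. Krt14 was at 21.8 CPM in mesothelial barcodes against 409 CPM in Epcam-positive barcodes, Krt5 was at 0.376 CPM in mesothelial barcodes against 169 CPM in Epcam-positive barcodes, and Krt17 was at 2.18 against 466 CPM.

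**Figure D4:**
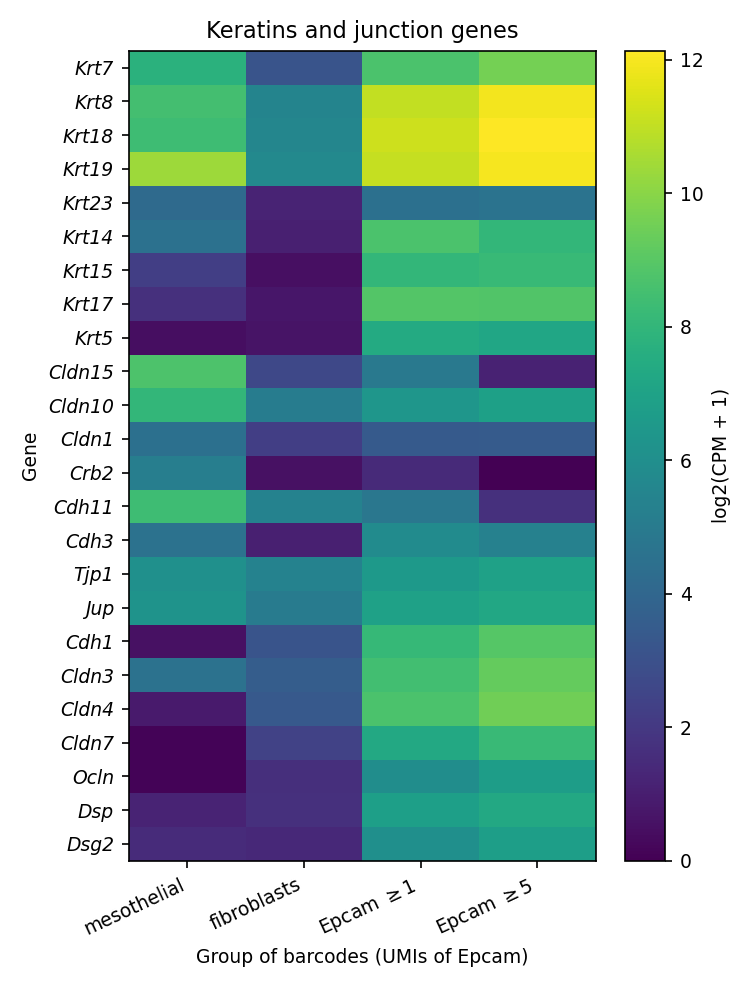
Levels of 9 keratins and 15 junction genes (y axis) as log2(CPM + 1) by colour, in mesothelial barcodes, fibroblasts, barcodes with at least 1 UMI of Epcam and the stricter set with at least 5 (x axis). Krt7, Krt8, Krt18 and Krt19 are bright in mesothelial and Epcam-positive columns, Cldn15, Crb2 and Cdh11 are brightest in the mesothelial column, and Cdh1, Cldn4, Cldn7 and Ocln are dark there.

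Junction genes followed a different split. Against fibroblasts 7 of 13 tested were higher and none lower (median log2 ratio 2.17), and against Epcam-positive barcodes 3 of 20 were higher and 8 lower (median -1.33). Cldn15, a claudin that forms pores for cations, was at 312, 423 and 495 CPM in mesothelial barcodes, against 1.89, 5.23 and 10.4 CPM in fibroblasts. It was at 28.9 CPM in Epcam-positive barcodes and 1.23 CPM in the stricter set. Crb2, a polarity protein of apical membranes, was at 34.9 CPM in mesothelial barcodes, 0.436 CPM in fibroblasts and 1.74 CPM in Epcam-positive barcodes.

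Cadherins differed in kind. Cdh11, a mesenchymal cadherin, was at 330 CPM in mesothelial barcodes, 40.6 CPM in fibroblasts and 27.2 CPM in Epcam-positive barcodes. Cdh1, or E-cadherin, gave 6 UMIs in all mesothelial barcodes (0.451 CPM), against 7.99 CPM in fibroblasts and 283 CPM in Epcam-positive barcodes. Cldn7 and Ocln, of epithelial tight junctions, gave 1 UMI each in mesothelial barcodes, against 162 and 60.9 CPM in Epcam-positive barcodes. Elf5, a factor of secretory epithelium, gave none (up to 0.225 CPM) against 39.5 CPM, and the milk gene Csn3 gave 1 UMI against 85.1 CPM.

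Complement genes differed in both directions. The shares over all genes tested were 4.76% higher and 9.98% lower than in all others, and 5.99% and 6.33% than in fibroblasts. Of 14 tested, 4 were higher than in all others (C3, C2, Cfb and Clu) and 3 lower, with a median log2 ratio of 0.43, and 3 were higher than in fibroblasts (Cd59a, C2 and Clu) and 4 lower, with a median log2 ratio of 0.01. C3, the component on which all pathways converge, was at 4784, 6637 and 8439 CPM in mesothelial barcodes, against 2004, 2203 and 2519 CPM in fibroblasts and 1023 to 1494 CPM in all others. Its suffix ranges did not overlap, and the ratio to fibroblasts was 2.95, within 4-fold. C2 was at 712 CPM in mesothelial barcodes against 135 CPM in fibroblasts and Cfb, factor B of the alternative pathway, was at 536 against 135 CPM, just within 4-fold. Clu, or clusterin, which blocks the terminal complex, was at 1122 CPM in mesothelial barcodes and 29.7 CPM in fibroblasts. C7, of the terminal complex itself, was at 17.5 CPM against 307 CPM in fibroblasts, and Cd55, a surface inhibitor, was at 55.1 against 285 CPM.

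Genes of clotting and prostanoid synthesis mostly lay within 4-fold. Over all genes tested, 4.76% were higher and 9.98% lower than in all others, and 5.99% and 6.33% than in fibroblasts. Among 12 tested clotting genes 1 was higher than in all others and 3 lower (median log2 ratio 0.36). The higher one, Thbd, encodes thrombomodulin, which turns thrombin to an anticoagulant role, and was at 828 CPM in mesothelial barcodes against 154 CPM in all others and 213 CPM in fibroblasts. Against fibroblasts, none of 13 tested clotting genes was higher and 3 were lower (median log2 ratio 0.15). Among 8 prostanoid genes tested against fibroblasts 2 were higher, Ptgis and Ptgds, and none lower, with a median log2 ratio of 1.02. Against all others the same 2 of 10 were higher and 2 were lower, Tbxas1 and Hpgds (median log2 ratio 0.39). Ptgis, the prostacyclin synthase, was at 630, 772 and 1256 CPM in mesothelial barcodes, against 112, 135 and 167 CPM in fibroblasts. Ptgds, a prostaglandin D synthase, was at 20.2 CPM in mesothelial barcodes against 0.208 CPM in fibroblasts.

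Retinoid genes mostly lay within 4-fold of fibroblasts. Of 11 tested against fibroblasts, Aldh1a2 alone was higher and 2 were lower (median log2 ratio 0.35). The shares over all genes tested were 5.99% higher and 6.33% lower. Aldh1a2, which makes retinoic acid in the embryonic mesoderm, was at 174 CPM in mesothelial barcodes, 18.7 CPM in fibroblasts and 18.4 CPM in all others. Aldh1a3 was at 1.65 CPM in mesothelial barcodes against 27.2 CPM in fibroblasts, and Cyp26b1, which degrades retinoic acid, at 3.31 against 32.2 CPM.

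Growth factor genes split evenly against fibroblasts, with 8 of 29 higher and 8 lower (median log2 ratio -0.57). Over all genes tested, 5.99% were higher and 6.33% lower. The higher ones were Fgf1, Fgf9, Bmp4, Wnt2b, Wnt4, Rspo1, Igfbp2 and Pdgfa. Fgf1, at 921 CPM in mesothelial barcodes and 28.2 CPM in fibroblasts, ran from 825 to 1150 CPM across mesothelial suffixes and from 16.2 to 50.1 CPM across fibroblast suffixes. Rspo1, an amplifier of Wnt signals, was at 542 CPM in mesothelial barcodes against 25.7 CPM in fibroblasts, and its relative Rspo3 was at 2.86 CPM against 26.7 CPM. Among fibroblast growth factors, Fgf9 was at 134 CPM in mesothelial barcodes and 6.85 CPM in fibroblasts, while Fgf7 was at 3.83 and 58.7 CPM and Fgf10 at 1.95 and 23.5 CPM.

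Matrix genes were lower than in fibroblasts for 8 of 20 tested and higher for 2, Nid2 and Col4a6 (median log2 ratio -1.31). Fn1, or fibronectin, was at 159 CPM in mesothelial barcodes against 2418 CPM in fibroblasts. The basement membrane chains Col4a1 and Col4a2 were at 59.6 and 37.7 CPM in mesothelial barcodes against 407 and 261 CPM in fibroblasts, and Col4a6 was at 80.2 against 6.66 CPM. Dcn, a proteoglycan often read as a fibroblast marker, was at 13120, 14315 and 20782 CPM in mesothelial barcodes, against 10430, 13263 and 17086 CPM in fibroblasts, and these ranges overlapped. The fibroblasts were chosen on Dcn, and 118 mesothelial barcodes also met the fibroblast criteria, of which 23.7% were called doublets. Of 13 genes tied to the change of mesothelium into mesenchyme, none was at least 4-fold higher than in fibroblasts and 4 were lower (median log2 ratio -1.67).

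Cytokine and chemokine genes were lower than in fibroblasts for 7 of 14 tested and higher for none (median log2 ratio -1.95). Il6 was at 12.7 CPM in mesothelial barcodes against 142 CPM in fibroblasts, the monocyte attractant Ccl2 at 187 against 1397 CPM, and Cxcl12 at 18.0 against 273 CPM. Of 6 host defence genes tested, Slpi was higher than in fibroblasts and Lbp, Hp and Lyz2 were lower, and Lyz2 has a close copy. Within 4-fold were Il33 at 74.5 against 67.2 CPM in fibroblasts and Cxcl10 at 252 against 242 CPM. Of 14 antigen presentation genes, 5 were lower than in all others (Ciita, H2-Ab1, H2-Aa, H2-Eb1 and Cd74) and none was at least 4-fold apart from fibroblasts. H2-Ab1, of class II, was at 188 CPM in mesothelial barcodes against 1043 CPM in all others, and 130 CPM in fibroblasts. H2 genes have close copies, so their counts are uncertain.

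Transport genes were higher than in fibroblasts for 7 of 13 tested and lower for 3 (median log2 ratio 3.31). Slc9a3r1, a scaffold of microvilli, was at 457 CPM in mesothelial barcodes against 15.4 CPM in fibroblasts, and its partner Ezr, or ezrin, was at 423 against 34.9 CPM. The chloride channel Ano1 was at 283 CPM in mesothelial barcodes, 11.5 CPM in fibroblasts and 154 CPM in Epcam-positive barcodes. The water channel Aqp5 was at 110 CPM in mesothelial barcodes, 10.2 CPM in fibroblasts and 412 CPM in Epcam-positive ones. The 3 lower genes, Fabp4, Cd36 and Lpl, handle fatty acids.

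Trpv4 (chr5:114622152-114658421, minus strand), the calcium-permeable channel named in the study's title, was at 13.8, 23 and 28.3 CPM in mesothelial barcodes, against 2.78, 4.25 and 5.94 CPM in fibroblasts and 8.69, 13.9 and 18.5 CPM in all others. The mesothelial range lay above that of the fibroblasts and overlapped that of all others. The pooled level rested on 307 UMIs, and was 5.49-fold (4.73 to 6.36) that of fibroblasts and 1.60-fold (1.42 to 1.80) that of all others. On the log2 scale the ratio to all others was 1.14 in suffixes 1 to 4 and 0.33 in suffixes 5 to 8. At 2000 UMIs per barcode, 4.85% of mesothelial barcodes, 0.835% of fibroblasts, 3.47% of all others and 0.402% of B cells held a UMI of Trpv4. Piezo2, a mechanically gated channel, was at 125 CPM in mesothelial barcodes, 24.4 CPM in fibroblasts and 333 CPM in Epcam-positive barcodes. With Trpv4 it made up the 2 of 9 tested mechanosensitive genes that were higher than in fibroblasts (median log2 ratio 0.52). The share higher over all genes tested was 5.99%.

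Immediate early genes, which dissociation is known to induce, were all within 4-fold of fibroblasts and of all others (17 of 17). Their summed level was 43452 CPM in mesothelial barcodes (29210 to 51196 across suffixes), 33433 CPM in fibroblasts (30691 to 37231) and 29120 CPM in all others. Atf3 was at 5181 CPM in mesothelial barcodes and 2705 CPM in fibroblasts. The part of dissociation in the levels above was not tested. Of 17 cell cycle genes, only 2 passed the filter on low values against fibroblasts, and Mki67 was at 2.10 CPM in mesothelial barcodes, 4.92 CPM in fibroblasts and 18.7 CPM in all others.

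Mesothelial barcodes also differed among themselves. At 2000 UMIs per barcode the ratio of variance to mean, about 1 for pure counting error, had a median of 1.10 over genes with a mean of at least 0.2 UMIs. It was 24.2 for Malat1, a nuclear long RNA, 21.8 for Slpi, 18.7 for Gsn, an actin-severing protein, 11.7 for Acta2 and 7.94 for Tnfaip6, a hyaluronan-binding protein. Cxcl2 and Cxcl1 followed at 6.15 and 6.04. Gsn, Acta2 and Tnfaip6 stood highest in group 5 of the clustering below, in which 55.0% of barcodes were called doublets. Acta2 was at 551 CPM there against 91.6 CPM in the other mesothelial barcodes.

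Clustering without the rule genes gave 5 groups of 207, 205, 193, 167 and 60 barcodes. The number of groups depends on the resolution, and genes that lead a group are given as a description. Of the 4 larger groups, group 1 (201 of 207 barcodes) and group 4 (162 of 167) came mostly from suffixes 1 to 4, and group 2 (163 of 205) and group 3 (180 of 193) mostly from suffixes 5 to 8. No label names what the sets are, and the groups cannot be told apart from the sets. Leaving Xist, Tsix and genes of the Y chromosome out of the clustering also gave 5 groups. Leaving called doublets out gave 6, of which the largest held 88 barcodes of group 1 and 185 of group 2, so the split of these groups by suffix set was not kept.

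Within each set, the larger groups differed by Malat1. It was at 3323 CPM in group 1 and 2328 CPM in group 2, against 16956 CPM in group 3 and 16211 CPM in group 4. Median mitochondrial share moved with it, at 1.24% and 1.26% in groups 1 and 2 against 1.85% and 1.81% in groups 3 and 4, and the part of RNA quality was not tested. Wt1 was at 498 and 430 CPM in groups 1 and 2 against 798 and 857 CPM in groups 3 and 4, and Muc16 was at 258 and 211 CPM against 415 and 379 CPM. Nkain4 went the other way, at 1187 and 1096 CPM in groups 1 and 2 against 792 and 778 CPM in groups 3 and 4. All these genes took part in forming the groups, so the values are a description. Trpv4 was between 21.2 and 27.3 CPM in all 5 groups.

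The leading genes of each group were of mixed kinds. Group 1 was led by Dlk1, Rasd1, Id1, Ifit3 and Igf1, and Dlk1, a Notch-related regulator of fat cell formation, was at 235 CPM there against 60.4 CPM in the other mesothelial barcodes. Group 2 was led by Svs5, Creld2, Fxyd5, Pnoc and Fxyd3, and Creld2, an endoplasmic reticulum stress gene, was at 320 CPM against 133 CPM. Group 3 was led by Nfatc2, Abtb2, Sik2, Gm26917 and Rbfox1, and Nfatc2, a calcium-dependent transcription factor, was at 464 against 98.2 CPM. Group 4 was led by Gm26802, Zfp804b, Ints6, Nlgn1 and Fgf14, and Nlgn1, a synaptic adhesion protein, was at 735 against 197 CPM.

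Group 5, with 60 barcodes from all 8 suffixes, was led by fibroblast genes. Tnfaip6 was at 1698 CPM there against 51.2 CPM in the other mesothelial barcodes, Gsn at 10394 against 417 CPM, Ccl11 at 509 against 10.6 CPM and Ebf1 at 536 against 13.0 CPM. It had a median of 21379.5 UMIs, 55.0% of its barcodes were called doublets, and 85.0% met the fibroblast criteria. Markers of smooth muscle and pericytes summed to 747 CPM there, against 127 to 209 CPM in groups 1 to 4, and those of endothelium to 98.6 CPM against 7.86 to 13.8 CPM. The part of mixed droplets was not tested. Leaving called doublets out took away 33 of the 60 barcodes, and 24 of those that remained still formed a group of their own. Its 8 summed mesothelial markers outside the rule were at 2500 CPM, against 3610 to 4050 CPM in groups 1 to 4. Without it, 462 genes were higher and 523 lower than in fibroblasts, and all 442 and 467 genes counted above were among them.

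**Figure D5:**
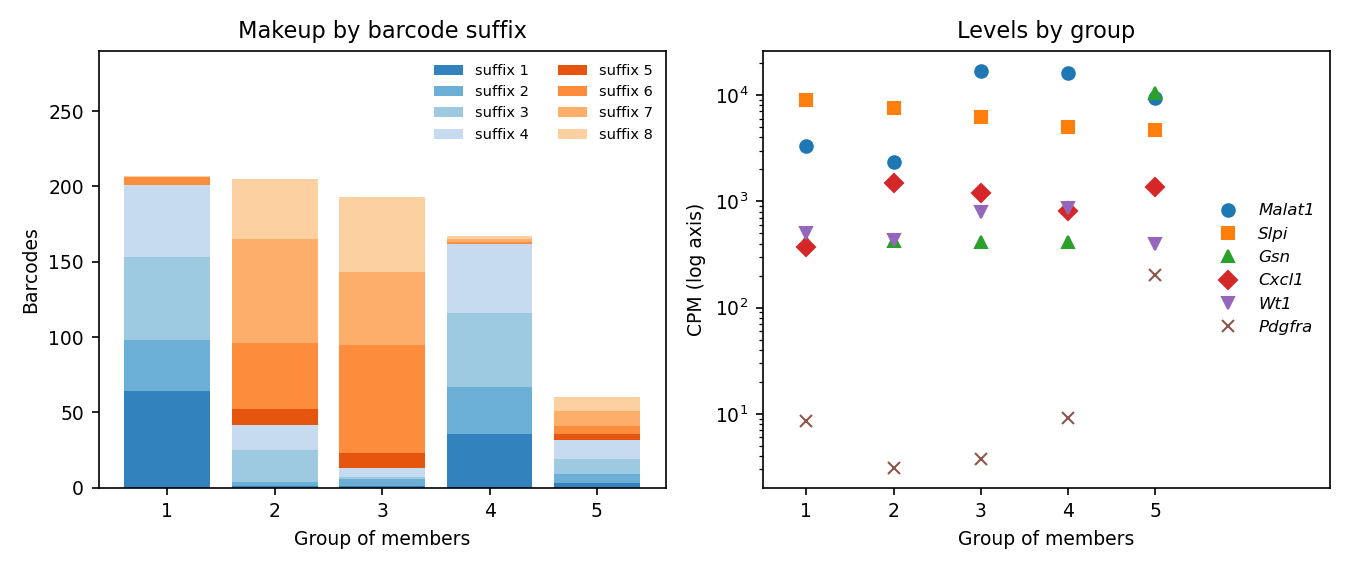
Left, number of mesothelial barcodes (y axis) in groups 1 to 5 (x axis) by barcode suffix; right, levels of 6 genes in each group as CPM on a log axis. Groups 1 and 4 are mostly blue (suffixes 1 to 4) and groups 2 and 3 mostly orange (suffixes 5 to 8), Malat1 stands highest in groups 3 and 4, and Gsn and Pdgfra stand highest in group 5.

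Slpi was among the most variable genes. Of the 825 mesothelial barcodes with at least 2000 UMIs, thinned to that depth, 197 (23.9%) held no Slpi UMI, 303 (36.7%) held 1 to 9 and 325 (39.4%) held 10 or more. These classes are ranges chosen after the values were seen, with 67 barcodes at 1 UMI and 65 at 8 to 11 UMIs, near the limits. All 8 suffixes held each class, and the class with none had 36, 10, 15, 24, 2, 44, 38 and 28 barcodes in suffixes 1 to 8. Median depth before thinning was 16417 UMIs in the highest class and 13524 UMIs in the class with none.

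Listed genes differed in how their levels went with Slpi across these classes. Of 24 other genes listed, without the genes of the rule, 10 were higher in the highest class than in the class with none in at least 7 of 8 suffixes, and 3 in at most 1. The 24 were picked by hand and the share over all genes was not computed, so these counts describe the list only. Krt18 had a ratio of 2.77 (7 of 8 suffixes), Muc16 of 2.22 (8 of 8), Lgals7 of 1.88 (8 of 8), Gpm6a of 1.60 (8 of 8) and Fgf1 of 1.51 (8 of 8). The others of the 10 were Clu, Nkain4, C3, Efemp1 and Ezr. Krt8 and Krt19 had ratios of 1.78 and 1.34, in 6 of 8 suffixes each. The 3 were Wt1, with a ratio of 0.725 (1 of 8), Dcn, with 0.914 (1 of 8), and Pkhd1l1, a large receptor-like membrane protein, with 0.685 (0 of 8). Gata6 had a ratio of 0.833 (4 of 8).

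The 85 barcodes that missed the rule only for want of Msln had lower levels of most genes listed. Of 29 genes without those of the rule, 22 were lower than in members beyond counting error, 3 higher (Wt1, Pdgfra and Dcn) and 4 neither. The 29 were picked by hand, most of them mesothelial genes, and the share over all genes was not computed. Among members, Msln was itself 2.53-fold higher in the highest Slpi class than in the class with none. Levels of genes that go with Msln are thus not independent of the choice of these barcodes. They had a median of 9049 UMIs, and 6.20 UMIs of Msln would stand for the members' level at that depth. In mesothelial members Slpi was at 6747 CPM against 554 CPM in these barcodes, Muc16 at 307 against 51.9 CPM, Krt18 at 330 against 55.8 CPM and Krt8 at 363 against 77.8 CPM. Smaller differences were those of Gpm6a, at 579 CPM in members against 239 CPM, Rspo1, at 542 against 284 CPM, and Cldn15, at 422 against 228 CPM. Wt1 was at 614 CPM in members against 730 CPM in these barcodes, Gata6 at 324 against 287 CPM and Isl1 at 174 against 188 CPM. Pdgfra was at 25.6 CPM in members against 84.3 CPM in these barcodes, of which 8.24% were called doublets against 4.33% of members. Among members, Pdgfra was at 203 CPM in group 5 and at 5.93 CPM outside it. The 85 barcodes came from all 8 suffixes, with 15, 7, 13, 22, 1, 16, 6 and 5 barcodes in suffixes 1 to 8.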

How the data were processed

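The authors deposited 1 matrix of raw UMI counts per gene and barcode (32285 genes, 12 tags). It was written by Cell Ranger 7.1.0, per the file headers. Seurat 4.3.0.1 and mm10 are named in the submitters' processing notes. Gene positions are from GENCODE M21 (GRCm38) and promoters from RefSeq. Of 24046 barcodes, 23666 passed the cell filter, and their counts were summed per group and scaled to CPM. Intervals are exact at 95% (Poisson for CPM, conditional binomial for ratios, Clopper-Pearson for shares). Genes at 20 CPM or more in either sum were compared, without the 6 rule genes, and without Pdgfra and Dcn against fibroblasts. These steps were tested on simulated data.

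Doublets, scored against simulated ones within each set of 4 suffixes, numbered 418 and 388 and were kept. Members were clustered with scanpy 1.11.5 (1000 variable genes, 15 components, Leiden resolution 0.5) in Python 3.11.15. Named genes were the 25 largest and 10 smallest ratios over all others, 10 each way against fibroblasts and Epcam-positive barcodes, list genes, 5 leading genes per group, the 10 most variable genes, the rule genes and Trpv4. Genes ranked by these ratios had 50 CPM or more in the higher group, and the 25 also had to be higher in every suffix. Members and lists were chosen with earlier results of these data known. The Slpi classes and the barcodes lacking Msln were looked at after values were seen. Alternatives changed the filters, fold, member rule, doublets, suffixes and clustering. The sum of 1 marker list is not reported here.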

Additional observations from a re-analysis of the deposited data

Results flagged for a closer look

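Of 27 quantities checked over the 8 suffixes for a value far from the rest, 2 stood out, and chance gives about 1 in 20. Zfp185, a LIM domain protein gene, had its lowest suffix in mesothelial barcodes at 53.3 CPM, with the next at 72.6 CPM. Gsta3, a glutathione transferase gene, had its highest suffix in mesothelial barcodes at 325 CPM, with the next at 251 CPM. Both genes were higher than in all others in 8 of 8 suffixes. Both belong to the genes with the largest ratios, which had to be higher in every suffix. Their 8 of 8 was thus set by that choice and says nothing about the flagged values.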

How the results depend on the processing

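No paired analysis was possible because no label maps a suffix to a sample, so that the matrix counts as 1 sample and no test was made. With no filter on low values, higher and lower genes numbered 6232 and 2916 against all others, 5089 and 1805 against fibroblasts, and 908 and 3203 against Epcam-positive barcodes. At 100 CPM they numbered 144 and 265, 150 and 177, and 172 and 193, and at 2-fold 909 and 1534, 924 and 994, and 983 and 1771, by the construction of these limits. Epithelium at 5 Epcam UMIs gave 796 higher genes, and suffixes 5 to 8 alone 206. Leaving out each suffix in turn gave 369 to 384 and 770 to 794 against all others, 431 to 454 and 461 to 476 against fibroblasts, and 342 to 398 and 787 to 844 against Epcam-positive barcodes. The mesothelial share was 3.29% to 3.96% without each suffix, 3.18% with at least 2 UMIs of each marker and 2.21% after thinning to 2000 UMIs. Resolution 1.0 gave 12 groups in place of 5, and leaving out called doublets 6. The log2 ratios to all others of the 25 leading genes and Trpv4 under 18 settings (468 values) never changed sign, but 200 moved beyond counting error. Apart from Trpv4 they ran from 4.48 to 9.68, the highest for Chst4 against others without the barcodes near the rule, where Bnc1 was at 8.57 and Slpi at 8.16, against 6.08 and 5.83 in the values reported. For Trpv4 the log2 ratio was 0.68, and 0.35 as a mean of CPM per barcode. The settings with suffix sets, others without barcodes near the rule, stricter epithelium, clustering without Xist, Tsix and Y-linked genes, and without the fibroblast-led group were chosen after seeing the data. Depth limits genes at a few UMIs, among them Gata4, Cldn7 and Ocln, whose levels are bounded rather than ordered.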

Other observations

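Among the 25 genes with the largest ratios, several are known mainly from neurons, a grouping made after their values were seen. Stmn2, a regulator of microtubules in growing axons, was at 309, 407 and 552 CPM (lowest, median and highest suffix) in mesothelial barcodes, against 5.34, 9.72 and 25.2 CPM in all others. Nlgn1, a synaptic adhesion protein, was at 304 CPM in mesothelial barcodes and 8.03 CPM in all others. Il1rapl1, another synaptic protein, was at 214 CPM in mesothelial barcodes and 4.70 CPM in all others. Rbfox1, a splicing regulator, was at 17.2, 131 and 260 CPM in mesothelial barcodes, against 2.04, 2.62 and 5.30 CPM in all others. Nlgn1 and Rbfox1 were uneven among mesothelial barcodes. In groups 3 and 4, where Malat1 was highest, Rbfox1 was at 315 and 184 CPM and Nlgn1 at 396 and 735 CPM. In groups 1 and 2 Rbfox1 was at 46.8 and 45.2 CPM and Nlgn1 at 144 and 63.7 CPM.

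Dlk1 had a wide spread over suffixes. It was at 5.92, 53.2 and 266 CPM in mesothelial barcodes, against 0.448, 1.31 and 5.71 CPM in all others, and the lowest mesothelial suffix lay just above the highest of the others. Of all mesothelial barcodes, 24.4% held a UMI of Dlk1.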
